A study of Homo sapiens with 4 samples.

Results

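The AP-1 and immediate early transcription factors described here are FOS, FOSL1, FOSL2, JUN, JUNB, JUND, EGR1, IER2, ATF3 and BATF3. They were taken by name as a group of known factors, and earlier results of these data were known when the group was chosen. Of the 10 genes, 9 were among the 14431 genes listed and were tested, and FOSL1 was not analysed here. RNA was sequenced from HGC27, a human gastric cancer cell line, in 2 control libraries and 2 libraries from cells given a small interfering RNA against AARS1 (siAARS1), which encodes the cytosolic alanyl-tRNA synthetase. Per the labels, the control cells were wild type, the siAARS1 cells were AARS1 knockdown, and cells of both groups spent 24 h in glucose-free DMEM with serum and 25 mM lactate. The study's own text states another time, so the length of the lactate exposure is uncertain. No culture without lactate was analysed here, and the number of siRNA sequences used is not known here. The labels call the controls control or NC and do not name a control siRNA. The comparison of siAARS1 with control asks how transcripts differed after AARS1 knockdown under lactate.

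AP-1 is a dimer of basic leucine zipper (bZIP) proteins, usually 1 protein of the FOS family with 1 of the JUN family, that binds short DNA elements upstream of genes for proliferation, migration and matrix remodelling. FOS proteins cannot pair with themselves, whereas JUN proteins can, and ATF and BATF proteins join the same network with other binding preferences. Several of these genes, together with EGR1 and IER2, are immediate early genes. Growth factors and stress switch them on within minutes through kinases and pre-existing factors such as SRF, and their mRNAs are short-lived.

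Between 30653210 and 33522573 reads fell in listed genes per library, and 1 read equalled 0.0293 to 0.0324 CPM (reads scaled to library size). Listed genes summed to 981442 to 992569 CPM, so the library size also counted reads outside them. The target of the siRNA, AARS1 (listed as AARS), was at 428 and 417 CPM in the controls and 292 and 298 CPM in the siAARS1 libraries. This left 69.7% of the control level (log2 fold change -0.52, adjusted p = 2.52e-11 in limma). Of the genes tested, 11.9% had a change as low as that of AARS1 or lower. Changes were widespread, since 70.7% of the 14199 genes tested were called at an adjusted p under 0.05, 38.0% lower and 32.6% higher. Log2 fold changes followed transcript GC content. Their median was 0.77 among the genes of lowest GC content and -0.30 among those of highest, when genes were split into 5 equal classes. All 9 factors were in the upper 3 classes, so the change of each factor is also given after a correction for GC content and transcript length, called the GC correction here. It removes real changes too, where they follow either property. After it the log2 fold change of AARS1 was -0.31.

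All 9 factors tested were called lower in siAARS1 cells, and none was higher, against a background of 70.7% of genes called in either direction and 38.0% called lower. In each of them both siAARS1 libraries were below both control libraries, as they were in 46.6% of all genes tested. These shares were higher in the upper 3 GC classes, which hold the 9 factors. In order of rising GC content, 41.8%, 61.4% and 67.2% of the genes there were called lower. Both siAARS1 libraries were below both controls in 54.3%, 72.9% and 77.4% of them. Their median log2 fold change was -0.71, beside -0.05 over all genes tested. FOS and EGR1 fell the most of the 9, and FOSL2 and BATF3 the least. With a log2 fold change of -1 or less, FOS and EGR1 belonged to the 1.63% of genes called lower by that much. Summed over the 9 genes, the level was 501 and 524 CPM in the controls and 325 and 318 CPM in the siAARS1 libraries. In bulk RNA, fewer cells that express a gene and less RNA per cell cannot be told apart.

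**Figure D1:**
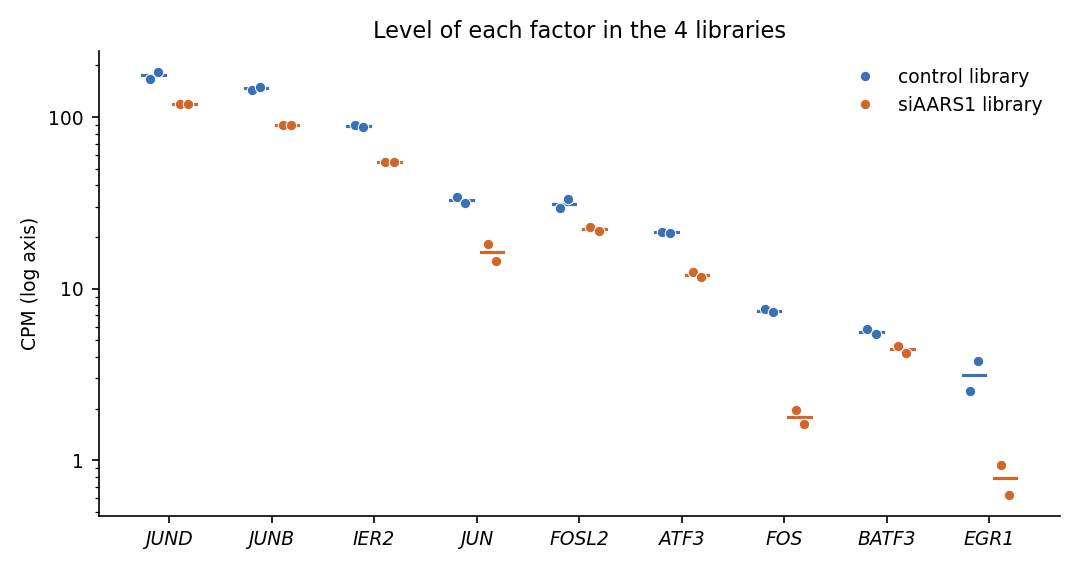
CPM on a log axis for each of the 9 factors, with 1 point per library and a line at the mean of each group (2 libraries). For every factor both siAARS1 points lie below both control points, with the widest gaps in FOS and EGR1 and the narrowest in BATF3.

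The FOS family supplies the obligate heterodimer partners of AP-1. FOS (ENSG00000170345; chromosome 14, 75278774 to 75282230, GRCh38) was at 7.63 and 7.28 CPM in the controls and at 1.98 and 1.62 CPM in the siAARS1 libraries. The groups were far apart relative to their spread, with means of 7.45 ± 0.243 and 1.80 ± 0.248 CPM (SD, n = 2 each). FOS thus fell 4.14-fold on the CPM scale, with a log2 fold change of -1.60 (SE 0.132, adjusted p = 5.67e-10 in limma). These levels rested on 260, 231, 61 and 54 reads. After the GC correction the log2 fold change was -1.41. Only 0.134% of the genes tested had a change as low as that of FOS or lower.

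FOSL2, also known as FRA2, is a FOS relative whose product usually lasts longer after stimulation. It lies on chromosome 2 (28392448 to 28417312) and was at 29.5 and 33.3 CPM in the controls and at 23.0 and 21.7 CPM after AARS1 knockdown. The siAARS1 mean of 22.3 ± 0.919 CPM was 71.1% of the control mean of 31.4 ± 2.67 CPM. Its log2 fold change of -0.47 (adjusted p = 6.63e-06 in limma) became -0.27 after the GC correction, where it was still called lower. Per kilobase of transcript, FOS made up 44.6% and 40.5% of the summed CPM of FOS and FOSL2 in the controls and 21.1% and 18.9% in the siAARS1 libraries.

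The JUN family holds the partners of FOS proteins, which also pair among themselves. JUN, the classical activating member, is a single-exon gene on chromosome 1 (58780788 to 58784327). It was at 34.1 and 31.5 CPM in the controls and at 18.3 and 14.5 CPM in the siAARS1 libraries. JUN fell to 49.9% of control, from 32.8 ± 1.83 to 16.4 ± 2.68 CPM, with a log2 fold change of -0.97 (SE 0.0877, adjusted p = 2.52e-09 in limma) and of -0.69 after the correction. Its siAARS1 libraries differed from each other more than those of JUNB or JUND did.

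JUNB, which can oppose JUN at some promoters, lies on chromosome 19 (12791496 to 12793315). It had 144 and 151 CPM in the controls and 89.4 and 89.5 CPM in the siAARS1 libraries, 60.8% of control. Its log2 fold change was -0.71 (adjusted p = 2.41e-12 in limma), and -0.34 after the correction. JUNB shares 14.2% of its exon bases with HOOK2, a gene on the opposite strand. Whether reads were counted by strand was not stated, so reads from the shared stretch cannot be assigned. HOOK2 itself was at 57.0 and 55.5 CPM in the controls and 44.7 and 44.4 CPM in the siAARS1 libraries.

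JUND, the member that many cells express without stimulation, is on the same chromosome (18279760 to 18281622). It was at 166 and 184 CPM in the controls and at 119 CPM in each siAARS1 library. JUND fell to 68.3% of control, with a log2 fold change of -0.55 (adjusted p = 6.19e-10 in limma). After the correction this was -0.14, still called lower, and the transcript of JUND had the highest GC content of the 9, at 69.7%. The summed level of the JUN family was 344 and 366 CPM in the controls and 227 and 223 CPM in the siAARS1 libraries. Taken per kilobase, the share of JUN in the family was 5.04% in the controls and 3.92% in the siAARS1 libraries, that of JUNB 44.0% and 41.7%, and that of JUND 51.0% and 54.4%.

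ATF3 and BATF3 are bZIP proteins that pair with JUN proteins and can repress transcription. ATF3, a stress-induced gene on chromosome 1 (212565334 to 212620777), was at 21.4 and 21.2 CPM in the controls and at 12.5 and 11.6 CPM in the siAARS1 libraries. It fell to 56.7% of control, with a log2 fold change of -0.77 (SE 0.0830, adjusted p = 3.97e-08 in limma) and of -0.59 after the correction.

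BATF3, known for its role in a class of dendritic cells, lies near ATF3 (212686418 to 212699985). It was at 5.81 and 5.45 CPM in the controls and at 4.66 and 4.24 CPM in the siAARS1 libraries, from 141 to 198 reads per library. This was the weakest of the 9 changes. Its log2 fold change was -0.28 (SE 0.122), and its adjusted p in limma of 0.0446 was just under the threshold. The call was lost when any 1 library was left out, with limma adjusted p-values of 0.0608 to 0.19. It was also lost on recovered reads, with adjusted p-values of 0.0714 in edgeR and 0.271 in DESeq2. After the GC correction the log2 fold change was -0.01 (adjusted p = 0.933 in limma).

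EGR1 is a zinc finger factor outside the bZIP class that binds GC-rich elements. It lies on chromosome 5 (138465490 to 138469315) and had the lowest level of the 9 per kilobase. EGR1 was at 2.52 and 3.78 CPM in the controls, from 86 and 120 reads, and at 0.939 and 0.632 CPM in the siAARS1 libraries, from 29 and 21 reads. Its controls differed more, relative to their mean, than those of any other of the 9 factors, yet the lower control was still above both siAARS1 libraries. EGR1 fell 4.01-fold on the CPM scale, with a log2 fold change of -1.21 (SE 0.172, adjusted p = 2.25e-06 in limma) and of -1.03 after the correction. At levels this low the pseudocount of 1 CPM understates the change. With a pseudocount of 0.1 CPM the log2 fold change of EGR1 was -1.87 and that of FOS was -1.997.

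IER2, an immediate early nuclear protein outside the bZIP class, lies on chromosome 19 (13150415 to 13154908). It was at 90.4 and 87.0 CPM in the controls and at 54.9 and 54.5 CPM in the siAARS1 libraries, 61.6% of control. Its log2 fold change was -0.69 (adjusted p = 3.26e-11 in limma), and -0.33 after the correction. An antisense gene, AC011446.2, shares 30.8% of the exon bases of IER2 and was not analysed here.

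**Figure D2:**
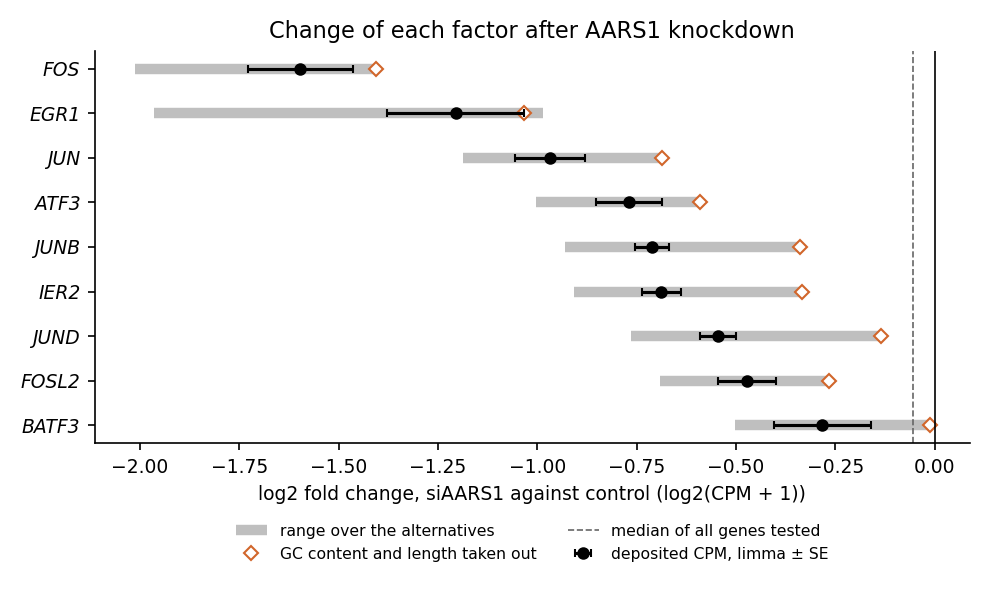
Log2 fold change of each factor, siAARS1 against control. Black points are the limma values of deposited CPM with their SE, open diamonds are the values after the GC correction, and grey bars span the processing alternatives, of which those on recovered reads have no fixed pseudocount. FOS, EGR1, JUN and ATF3 stay below -0.5 under every alternative drawn, while BATF3 reaches -0.01.

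Levels of different genes are compared per kilobase of transcript. In the controls, JUND was at 93.9 ± 6.56 CPM per kb and JUNB at 80.9 ± 2.57, followed by IER2 at 30.2 ± 0.817. ATF3 was at 10.5 ± 0.0685 CPM per kb and JUN at 9.26 ± 0.518. BATF3, FOSL2, FOS and EGR1 followed, at 5.74 ± 0.255, 4.68 ± 0.398, 3.45 ± 0.113 and 1.00 ± 0.284 CPM per kb. The order was the same in the siAARS1 libraries, where JUN at 4.62 ± 0.758 and BATF3 at 4.54 ± 0.304 CPM per kb differed by less than their spread. FOS and EGR1 were thus the lowest of the 9 in both groups.

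The fall was not equally deep against genes of like GC content. Within its own GC class, FOS was among the lowest 0.145% of genes by log2 fold change, EGR1 among the lowest 1.34%, ATF3 among the lowest 3.26% and JUN among the lowest 3.44%. JUNB stood at 12.2%, IER2 at 13.5%, FOSL2 at 22.3% and JUND at 23.4%. BATF3 was at 52.0%, in the middle of its class. After the correction the median of the 9 log2 fold changes was -0.34, and 8 of them were called lower, as were 33.3% of all genes in that fit.

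**Figure D3:**
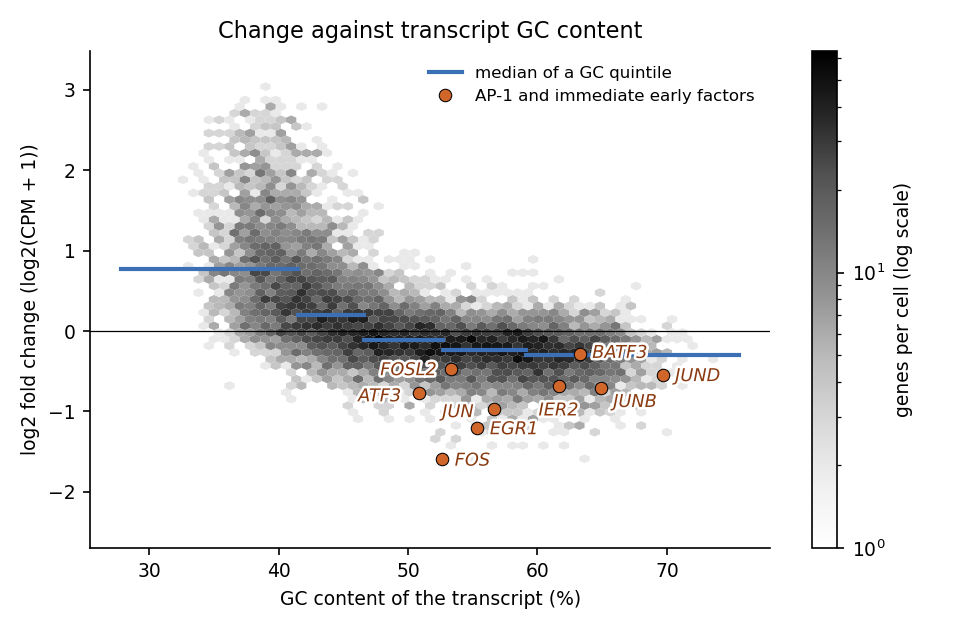
Log2 fold change against transcript GC content for all genes tested (grey, darker where more genes fall), with the median of each of 5 GC classes in blue and the 9 factors in orange. The medians go from 0.77 to -0.30 with rising GC content, and FOS, EGR1, JUN and ATF3 lie at the lower edge of the genes beside them.

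Features of the transcripts were counted beside those of all coding genes, and none was found in all 9. In the 1 GENCODE transcript chosen per gene, JUN, JUNB, JUND and IER2 have a single exon, 4 of 9, beside 2.04% of 12309 coding genes. Other annotated transcripts of a gene may have more exons. AU-rich elements in the 3′ UTR shorten the life of many immediate early mRNAs. At least 1 ATTTA was found in the 3′ UTR of 8 of the 9, all but IER2, beside 69.2% of coding genes. The longer element TTATTTATT was found in FOS and FOSL2, beside 8.55% of coding genes. FOS holds 5 ATTTA in its 3′ UTR and FOSL2 holds 9, while EGR1, JUND and BATF3 hold 1 each.

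The promoters were searched for short elements through which these factors and SRF are known to act. Windows of 300 bases, from 250 before to 50 after the annotated start, were taken from RefSeq (GRCh38.p14) for 8 of the 10 genes. ATF3 has 2 windows, which gives 9 in all. The 5 windows printed, those of EGR1, FOS, JUN, JUND and FOSL2, hold at least 1 of the elements searched. They are written 5′ to 3′ on the strand of the gene, with the elements found in capitals. The windows of ATF3, JUNB and IER2 are not printed. The elements searched, on both strands, were the AP-1 site TGANTCA, the cyclic AMP response element (CRE) TGACGTCA, its variant TGACATCA, the short CRE core TGACGT (which also lies inside the CRE), the EGR site GCGNGGGCG and the CArG box, the binding element of SRF.
EGR1, chr5:138465229-138465528, plus strand: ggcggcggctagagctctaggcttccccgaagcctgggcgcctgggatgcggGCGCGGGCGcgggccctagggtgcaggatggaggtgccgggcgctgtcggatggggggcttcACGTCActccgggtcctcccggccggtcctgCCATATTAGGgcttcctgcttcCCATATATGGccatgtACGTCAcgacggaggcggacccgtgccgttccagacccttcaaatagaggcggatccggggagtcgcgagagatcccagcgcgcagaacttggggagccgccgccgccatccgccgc
FOS, chr14:75278578-75278877, plus strand: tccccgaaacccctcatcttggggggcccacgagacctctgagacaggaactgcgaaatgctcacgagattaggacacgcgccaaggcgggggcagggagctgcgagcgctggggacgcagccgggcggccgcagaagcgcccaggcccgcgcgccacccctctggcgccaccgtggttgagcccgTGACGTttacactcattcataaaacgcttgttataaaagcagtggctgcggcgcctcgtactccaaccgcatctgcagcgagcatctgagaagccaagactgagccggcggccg
JUN, chr1:58783998-58784297, minus strand: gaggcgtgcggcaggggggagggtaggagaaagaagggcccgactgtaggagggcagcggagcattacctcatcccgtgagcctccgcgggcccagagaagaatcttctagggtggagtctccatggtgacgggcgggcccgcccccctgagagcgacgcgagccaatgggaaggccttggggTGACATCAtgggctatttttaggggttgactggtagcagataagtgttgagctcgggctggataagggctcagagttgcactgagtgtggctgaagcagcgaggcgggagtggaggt
JUND, chr19:18281573-18281872, minus strand: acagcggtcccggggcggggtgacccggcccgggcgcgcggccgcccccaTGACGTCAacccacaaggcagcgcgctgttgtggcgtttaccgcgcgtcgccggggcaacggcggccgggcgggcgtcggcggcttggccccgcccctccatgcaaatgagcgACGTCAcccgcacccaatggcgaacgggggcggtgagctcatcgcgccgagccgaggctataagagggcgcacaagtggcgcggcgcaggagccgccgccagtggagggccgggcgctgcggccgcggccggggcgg
FOSL2, chr2:28392608-28392907, plus strand: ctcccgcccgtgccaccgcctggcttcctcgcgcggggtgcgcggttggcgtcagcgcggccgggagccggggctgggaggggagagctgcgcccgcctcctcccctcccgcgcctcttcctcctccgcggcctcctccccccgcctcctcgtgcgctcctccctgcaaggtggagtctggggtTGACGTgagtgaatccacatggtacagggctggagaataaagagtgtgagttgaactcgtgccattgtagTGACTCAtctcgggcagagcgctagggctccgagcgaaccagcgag

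The EGR1 window holds a pair of CArG boxes, CCATATTAGG and CCATATATGG, at -105 to -96 and -83 to -74 from the start, and an EGR site at -198 to -190. A CArG box is in 1.29% of the 35116 windows of all genes, and an EGR site in 9.43%. The variant TGACATCA is in the JUN window, at -67 to -60, and in 1 ATF3 window, beside 2.61% of all windows. JUND holds a full CRE at -200 to -193, beside 1.85% of windows. The short CRE core is in the windows of FOS, FOSL2, EGR1 and JUND, beside 7.98% of windows, and in FOS it lies at -64 to -59. FOSL2 alone of the 8 genes holds the AP-1 site in the form searched, TGANTCA, at 5 to 11 after the start, beside 7.71% of windows. None of these elements was found in the JUNB or IER2 windows. The median GC content of the 9 windows was 68.7%, beside 58.7% over all windows. A match describes the letters and does not show that a factor binds there. Sequence beyond the windows was not searched, so an element not found here may lie further upstream.

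Most other immediate early genes were lower as well. Of 47 genes on a list of immediate early genes beyond the 9 factors, 41 were tested, of which 31 fell, 2 rose and 8 were not called. That is 75.6% lower and 4.88% higher, beside 38.0% and 32.6% over all genes tested. Their median log2 fold change was -0.51, and -0.31 after the GC correction, when 30 were lower and 3 higher. In that fit 33.3% of all genes were lower and 32.8% higher. CTGF (CCN2) and CYR61 (CCN1), secreted matricellular proteins that are also targets of YAP and TEAD, had log2 fold changes of -1.51 and -1.08 (-1.35 and -0.91 after the GC correction). IER3, a stress-response gene, fell from 13.2 to 5.98 CPM, with a log2 fold change of -1.03 (-0.73 after the correction). The 2 that rose were ARID5B, a chromatin-binding factor, from 18.0 to 35.8 CPM, and MYC, from 367 to 389 CPM. The log2 fold change of ARID5B was 0.95, and 0.33 after the correction. That of MYC was 0.08 (adjusted p = 0.0460 in limma), 0.42 after the correction and -0.14 under median scaling. Without control replicate 1, control replicate 2 or siAARS1 replicate 1, MYC lost its call, with adjusted p-values in limma of 0.252, 0.0682 and 0.226. EGR3, a relative of EGR1, was listed at 0.528 and 1.17 CPM in the controls and 0.680 and 0.451 CPM in the siAARS1 libraries, and was too low to be tested.

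ZFP36, BTG2, DUSP1 and NR4A1 were among those that fell, and were named after their values were seen. ZFP36 encodes tristetraprolin, which binds AU-rich elements and speeds the decay of their mRNAs. It was at 8.95 and 10.7 CPM in the controls and at 5.02 and 4.84 CPM in the siAARS1 libraries, a log2 fold change of -0.86. BTG2, an antiproliferative gene, fell from 29.5 to 15.3 CPM, with a log2 fold change of -0.90. DUSP1, a phosphatase of MAP kinases, fell from 16.1 to 10.4 CPM, and NR4A1, an orphan nuclear receptor, from 23.9 to 15.9 CPM. All 4 were also called lower after the GC correction.

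**Figure D4:**
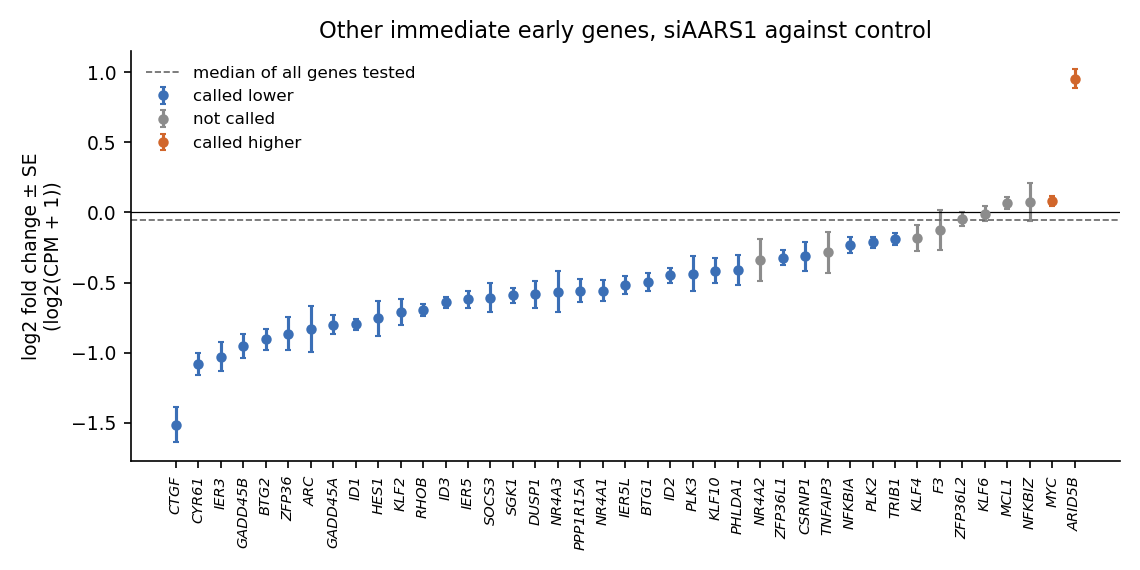
Log2 fold change ± SE (limma, 2 libraries per group) of the 41 other immediate early genes tested, in rising order, with the median of all genes tested as a dashed line. The 31 genes called lower (blue) run from CTGF at -1.51 to TRIB1 at -0.19, and MYC and ARID5B are the 2 called higher (orange).

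Most of the AP-1 targets that could be tested fell. Of 31 genes on a list of known targets, 16 were tested, of which 12 fell, 2 rose and 2 were not called. The other 15, MMP1, MMP9 and IL6 among them, were not among the genes listed. The shares were 75.0% lower and 12.5% higher, beside 38.0% and 32.6% over all genes tested. The median log2 fold change was -0.35, and -0.19 after the correction, when 10 were lower and 3 higher. Of all genes in the corrected fit, 33.3% were lower and 32.8% higher. PLAU, the urokinase plasminogen activator, fell from 10.6 to 4.79 CPM, with a log2 fold change of -0.998 (-0.80 after the correction), and its receptor PLAUR from 10.5 to 6.41 CPM. The log2 fold change of PLAUR was -0.65, -0.36 after the correction and -0.40 without siAARS1 replicate 2. TIMP1, an inhibitor of matrix metalloproteinases, fell from 64.6 to 38.8 CPM, and TGFB1, a growth factor, from 132 to 88.8 CPM. Their log2 fold changes were -0.72 and -0.57, and -0.40 and -0.19 after the correction. The 2 that rose were ODC1, the first enzyme of polyamine synthesis, and ANXA1, a phospholipid-binding protein, with log2 fold changes of 0.17 and 0.42. ODC1 was at 0.36 after the correction and, not called, at -0.05 under median scaling, whereas ANXA1 was called lower after the correction, at -0.18. VEGFA and HMGA1 were called lower, at -0.13 and -0.15, but called higher after the correction, at 0.18 and 0.20.

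The wider bZIP class was mixed. Of 34 other bZIP genes tested, 19 fell (55.9%), 9 rose (26.5%) and 6 were not called, beside 38.0% and 32.6% over all genes tested. Their median log2 fold change was -0.21 (-0.07 after the correction). FOSB, a close relative of FOS, was at 2.38 and 2.87 CPM in the controls and at 0.842 CPM in both siAARS1 libraries, with a log2 fold change of -0.97 (SE 0.157, adjusted p = 1.21e-05 in limma). JDP2, a repressor that pairs with JUN proteins, fell from 53.4 to 40.4 CPM. After the correction FOSB was at -0.77 and JDP2 at -0.25. FOSB and JDP2 were named after their values were seen. The 4 largest changes under the naming rule were rises. BACH1, a repressor of antioxidant genes, rose from 7.33 to 30.9 CPM, and NFE2L2 (NRF2), an activator of them, from 35.6 to 88.4 CPM. CREB1 and ATF2, which bind CREs, rose from 16.4 to 40.7 CPM and from 18.3 to 45.1 CPM. BACH1 and NFE2L2 were also called higher after the GC correction, at 0.73 and 1.17. ATF2 was then at 0.09 and not called, and CREB1 was called lower, at -0.29.

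The kinases and factors that lie upstream of immediate early genes did not move one way. Of 35 tested, 12 fell (34.3%), 15 rose (42.9%) and 8 were not called, with a median log2 fold change of 0.07. Over all genes tested 38.0% fell and 32.6% rose, so these shares were not far from the background. The SRF cofactor MKL2 (MRTFB) rose from 21.6 to 56.8 CPM, and ELK4, a ternary complex factor, from 18.9 to 52.5 CPM. RPS6KA5 and RPS6KA3, kinases downstream of MAP kinases, rose from 4.84 to 12.2 CPM and from 16.6 to 35.6 CPM. After the GC correction MKL2 was still called higher, at 0.58, and RPS6KA3 was called lower, at -0.18. RPS6KA5 at 0.19 and ELK4 at -0.02 were not called. SRF was at 64.8 and 67.5 CPM in the controls and at 59.0 and 52.9 CPM in the siAARS1 libraries. Its log2 fold change of -0.24, called lower, became 0.11 after the correction, called higher. MAPK3 (ERK1) fell from 69.0 to 45.6 CPM, and was also called lower after the correction. SRF and MAPK3 were named after their values were seen.

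A list of general mRNA decay genes and of proteins that bind AU-rich mRNAs was mostly higher before the correction. It leaves out the ZFP36 family, which is on the immediate early list, where ZFP36 and ZFP36L1 fell (log2 fold changes of -0.86 and -0.32). The third member there, ZFP36L2, was not called, at -0.05. After the GC correction ZFP36 and ZFP36L1 were still called lower, at -0.58 and -0.20, and ZFP36L2 was called higher, at 0.19. Of 21 genes tested, 14 rose (66.7%), 3 fell (14.3%) and 4 were not called, beside 32.6% and 38.0% over all genes tested. The median log2 fold change was 0.39. The exonuclease XRN1 rose from 2.41 to 14.4 CPM, the decapping enzyme DCP2 from 9.47 to 25.6 CPM, and RC3H1 and RC3H2, which encode the RNA-binding proteins Roquin-1 and Roquin-2, from 9.71 to 25.9 CPM and from 24.5 to 73.7 CPM. The 3 that fell were ELAVL1 (HuR), which is known to stabilise AU-rich mRNAs, the decapping cofactor DCP1B and the endonuclease ZC3H12A, with log2 fold changes of -0.14, -0.29 and -0.34. Transcripts of this list had a low median GC content of 43.2%, and the rise of the list was not seen after the GC correction. Its median was then -0.04, with 7 genes higher and 6 lower, beside 32.8% and 33.3% of all genes in that fit. DCP2 at -0.13, RC3H1 at -0.06 and RC3H2 at 0.06 were not called after it, and XRN1 at 0.77 was still called higher.

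**Figure D5:**
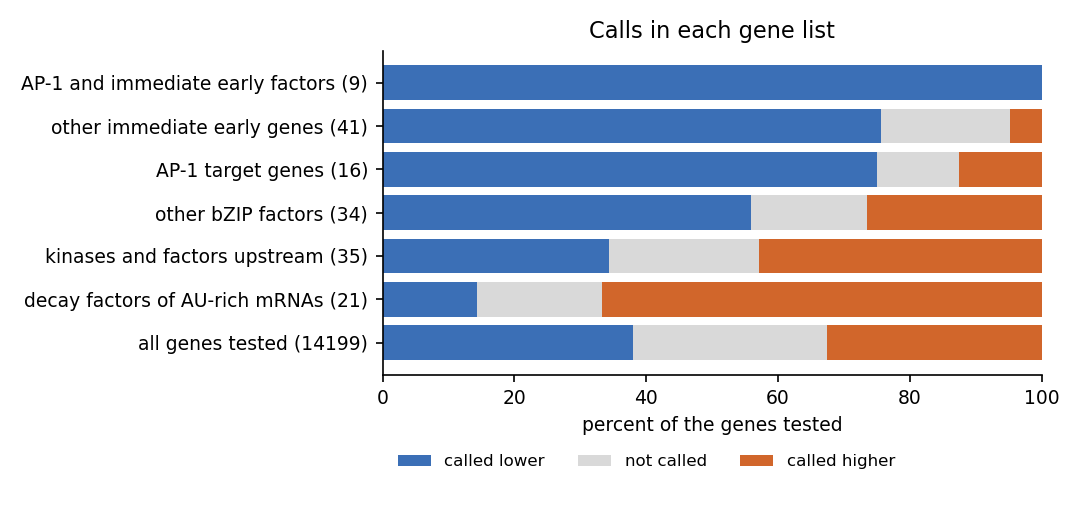
Share of the genes tested in each list (number in brackets) that limma called lower (blue), not called (grey) or called higher (orange) in siAARS1 cells. The 9 factors, the other immediate early genes (75.6% lower) and the AP-1 targets (75.0% lower) stand beside 38.0% lower over all genes tested.

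Some markers of cell type also differed between the groups. Of 5 epithelial markers, EPCAM, KRT18 and KRT19 were not among the genes listed. KRT8, an epithelial keratin, was at 24.8 and 25.2 CPM in the controls and at 6.61 and 5.08 CPM in the siAARS1 libraries, and CDH1 (E-cadherin) at 2.55 and 1.89 and at 0.680 and 1.05 CPM. Of 7 gastric epithelial markers only MUC1 was listed. It was at 10.4 and 10.5 CPM in the controls and at 9.46 and 9.96 CPM in the siAARS1 libraries. MUC1 was not called, with a log2 fold change of -0.10 (0.15 after the GC correction). Of the mesenchymal markers, CDH2 was not listed. ZEB1, a repressor of epithelial genes, was at 6.16 and 6.84 CPM in the controls and at 50.03 and 52.3 CPM in the siAARS1 libraries, with a log2 fold change of 2.80 (1.73 after the GC correction). VIM (vimentin) was called lower, at -0.13, but called higher after the correction, at 0.14. FN1 (fibronectin) had a log2 fold change of -0.47. Summed over 5 fibroblast markers, the level was 6458 and 6661 CPM in the controls and 4801 and 4709 CPM in the siAARS1 libraries. COL1A1, COL1A2 and COL3A1 were called lower. LUM, with means of 122 and 218 CPM, and DCN, with 245 and 264 CPM, were called higher. After the correction both were called lower, with log2 fold changes of -0.14 and -1.32. Of 5 immune markers only CD68 was listed, at up to 1.10 CPM, and no endothelial marker of 3 was listed. Most defining epithelial and gastric markers were thus not listed, in either group. The part of these differences in the changes of the AP-1 and immediate early factors was not tested.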

How the data were processed

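RNA-seq was measured in 2 control and 2 siAARS1 libraries of HGC27 cells, grouped by the sample titles. The authors deposited 1 table of CPM values. Per the submitters' processing notes, RSEM 1.3.3 and hg38 were used. The aligner, annotation and strand setting are not given in the sources used here. Each gene listed exceeded 1 CPM in at least 1 library, and no mitochondrial symbol was listed. Divided by the worth of 1 read, every CPM value was whole within 0.03 reads, and these recovered reads served as an alternative. The limit set by a count of 0, 3 reads, was 0.0880 to 0.0971 CPM, for counting error only.

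The filter kept genes whose mean reached 1 CPM in either group. They were tested on the log2(CPM + 1) scale in R 4.3.3 by limma 3.58.1, with a mean-variance trend in eBayes, Benjamini-Hochberg adjustment over all genes tested and a threshold of 0.05. A gene past it is called lower or higher. Fold changes on that scale understate the change of low genes. The correction for GC content and length (GC correction, mgcv 1.9.3) took the smooth trend with transcript GC content and length out of each library. Of the genes listed, 97.2% matched GENCODE v29 by identifier, from which coordinates, lengths and exons (GRCh38) were taken. Lengths, GC content, exon counts and 3′ UTRs are those of 1 transcript chosen per gene. That may not be the annotation the authors used. The alternatives were a pseudocount of 0.1, no filter, median scaling, quantile normalization, the replicate number as a block, leaving out each library, edgeR 4.0.16 (TMM and RLE) and DESeq2 1.42.0 on recovered reads, the correction with and without the block, and a threshold of 0.01. Scripts were tested on simulated data.

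Replicates differed by more than sampling noise, with a chi-square per gene of 3.62 for the controls and 3.60 for siAARS1, and all 4 libraries were used. Nothing in the labels says that the replicates came from separate cultures, so p-values measure only the spread between these libraries, which may be technical. The members and lists were chosen with earlier results of these data known. Lists are described by counts and medians, with no test. Named from each list were the up to 4 called genes of largest absolute change whose higher group averaged 5 CPM or more and whose groups did not overlap. Others are said to be named after their values were seen.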

Additional observations from a re-analysis of the deposited data

How the results depend on the processing

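FOS, FOSL2, JUN, JUNB, JUND, EGR1, IER2 and ATF3 were called lower in all 15 alternatives. The log2 fold change ranged from -2.01 to -1.41 for FOS, -1.96 to -0.99 for EGR1, -1.19 to -0.69 for JUN, -1.004 to -0.59 for ATF3, -0.93 to -0.34 for JUNB, -0.91 to -0.33 for IER2, -0.69 to -0.27 for FOSL2 and -0.77 to -0.14 for JUND. BATF3 (-0.50 to -0.01) lost its call in 10 of the 15, and with any 1 library left out it was at -0.34 to -0.23. Under median scaling the median of all genes was -0.27 instead of -0.05, 8173 genes were called lower, and higher calls made up 28.8% of all calls instead of 46.2%. The decay factors were then 7 lower, other immediate early genes and AP-1 targets 1 higher each, and the log2 fold change of MYC was -0.14 and of ODC1 -0.045. At a threshold of 0.01, 1 other immediate early gene was higher, and with 1 library left out 1 to 2 were. The decay factors called lower numbered 0 in DESeq2 and 1 to 3 with 1 library left out. After the GC correction, with or without the replicate block, 6 decay factors were lower and 7 higher, and the log2 fold change was -0.29 for CREB1, -0.017 for ELK4, -0.18 for RPS6KA3, -0.13 for DCP2, -0.056 for RC3H1, 0.11 for SRF and -0.18 for ANXA1. The cause of these shifts was not tested. The groups share replicate numbers, but deviations of same-numbered libraries correlated at only 0.118 over 14199 genes, and 2 pairs are too few to show pairing. With the replicate block 10389 genes were called instead of 10032, the 9 factors among them. Depth limits EGR1 most, at 21 to 120 reads per library.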
